A study of Mus musculus with 4 samples.

Results

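The mouse gonad of embryonic day E12.5 was compared with the genital ridge of the day before, E11.5, each represented by 1 library of tissue pooled from several embryos. Every gene with 10 or more counts in at least 1 of the 2 libraries entered the comparison, which gave 19500 of the 40999 listed features. The embryos were wild-type C57BL/6J mice, and each library mixed tissue of XX and XY embryos, so no value here belongs to 1 sex. The E11.5 library still held the mesonephros, which was absent by dissection from the E12.5 library and the later ones. Age and the loss of the mesonephros therefore cannot be told apart. Libraries of E13.5 and E14.5, prepared from gonads without mesonephros, served only to show levels beside the pair. With 1 library a side there was no replicate check and no p-value. A gene was called past 2-fold when the log2 ratio of its scaled counts, E12.5 over E11.5, was 1 or more in size and the 95% interval of that ratio did not hold 0. These intervals cover counting error only, and not the spread between pools of embryos.

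The genital ridge forms on the surface of the mesonephros, the transient kidney of the embryo. In XY gonads Sry, the testis-determining gene on the Y chromosome, directs supporting cells to become Sertoli cells, which surround the germ cells in cords, and fetal Leydig cells then start to make androgens. In XX gonads the supporting cells follow the pregranulosa pathway, and primordial germ cells, which reach the ridge by migration, go on to enter meiosis. Hox genes and a set of renal and mesenchymal transcription factors pattern the mesonephros and the neighbouring body wall.

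The libraries held 31266481 counts at E11.5 and 25593453 at E12.5. Among the 19500 genes, 1591 were higher at E12.5 (8.16%) and 1662 were lower (8.52%), together 16.7%. The median log2 ratio was -0.0048 and the middle 50% of genes lay between -0.32 and 0.29. Differences over 4-fold were found for 698 genes in the upward and 671 in the downward direction, and differences over 16-fold for 98 and 95. Another 405 genes had a ratio past 2-fold with an interval that held 0. Of the calls, 48.9% were upward, against 65.9% when the ratio of the deposited TPM, a level per transcript length, was used. Weak genes were called more often. Below a level of 1 CPM (a count scaled to library size), 15.1% of genes were called higher and 17.4% lower, while at 100 CPM or more these shares were 2.47% and 2.22%. Both libraries expressed the transcription factors of the gonadal primordium, with Wt1 at 10724 and 8769 counts and Emx2 at 3045 and 2773. By RNA type, 1300 of 15259 protein-coding genes were higher and 1249 lower. Nuclear ribosomal RNA took 9.06% of the E11.5 library and 1.31% of the E12.5 library. The 15 housekeeping genes listed had a median log2 ratio of 0.01, and none of them was past 2-fold.

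**Figure D1:**
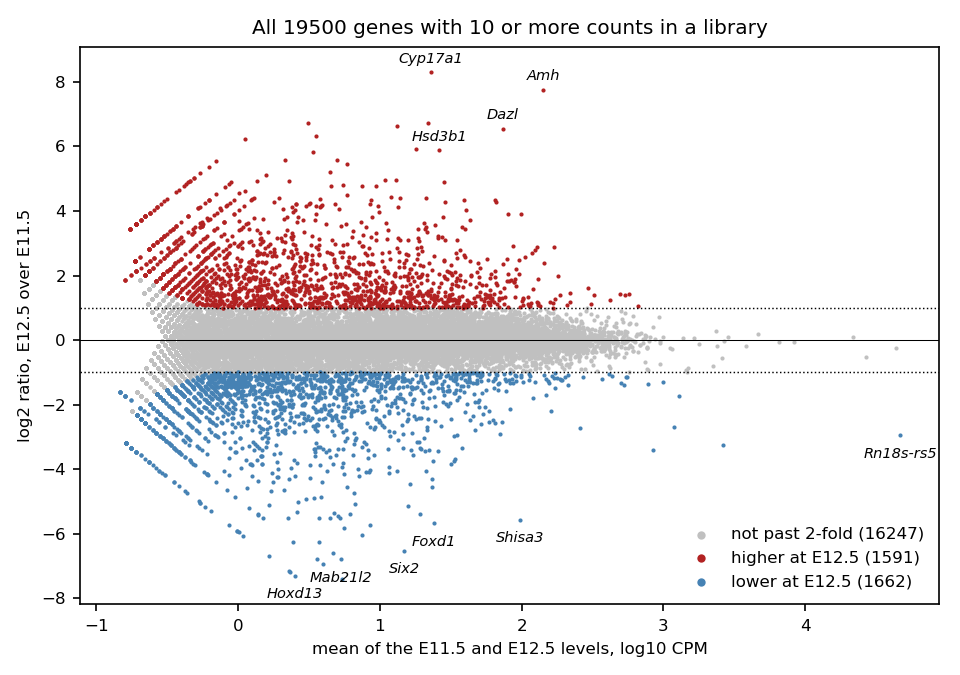
Log2 ratio of each of the 19500 genes (vertical axis) against its mean level in the 2 libraries (horizontal axis, log10 CPM), with genes called higher at E12.5 in red and lower in blue, and dotted lines at 2-fold. Amh and Cyp17a1 stand highest at 7.76 and 8.30, Foxd1 and Six2 are among the lowest at -5.68 and -6.52, and the 18S ribosomal RNA gene Rn18s-rs5 lies far to the right.

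Genes of Sertoli cells and testis determination were higher at E12.5 in 16 of 22 cases and lower in 1, with a median log2 ratio of 2.30. Amh, the hormone that makes the Müllerian duct regress, ranked first among the rises by the bound of its interval. It had 45 counts at E11.5 and 8900 at E12.5, a log2 ratio of 7.76 (interval 7.34 to 8.21), and its level was 260 and 302 CPM on the following days. Ptgds, a prostaglandin D synthase, went from 14 to 1362 counts (6.73, 5.98 to 7.61). Dhh, the Hedgehog ligand of Sertoli cells, went from 63 to 1707 counts (4.89, 4.53 to 5.28). These genes were thus low in the E11.5 library and high in each of the later ones. Hsd17b3, which makes testosterone from its precursor, rose from 23 to 572 counts (4.77). Cst9, Col9a3 and Aard had log2 ratios of 4.39, 4.36 and 4.35. Tesc, Mro and Vnn1 followed at 3.66, 3.09 and 2.65, and the inhibin subunit gene Inhbb at 1.61.

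Sry was the exception in this list. From E11.5 to E14.5 it had 100, 19, 1 and 0 counts, a log2 ratio of -2.27 between the pair (-3.06 to -1.55). Its level was thus highest in the E11.5 library and near or at 0 in the last ones. Sox9, the main target of Sry, had 2763 counts at E11.5, in the library that held the mesonephros, and 4282 at E12.5. How much of the E11.5 count came from the gonad was not tested. The log2 ratio of Sox9, 0.76 (0.69 to 0.83), was not past 2-fold. Fgf9, which sustains Sox9 in the XY gonad, behaved alike at 0.74, whereas the related factor gene Sox8 rose from 166 to 495 counts (1.71). Dmrt1 rose by 1.32 and Cyp26b1, the enzyme that breaks down retinoic acid in the fetal testis, by 1.28. Gadd45g and Map3k4, which act upstream of Sry, had values of -0.42 and 0.01.

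The balance of XX and XY tissue in the pools was read from sex-linked genes. The broadly expressed Y-linked genes Kdm5d, Uty, Eif2s3y and Ddx3y had log2 ratios of 0.09 to 0.25. Xist, which is made from the inactive X chromosome, had 31237 counts at E11.5 and 17879 at E12.5, a ratio of -0.67. None of these was past 2-fold, and their part in the differences of Sertoli and pregranulosa genes was not tested. Uba1y, a Y-linked ubiquitin-activating enzyme gene expressed in germ cells, rose from 18 to 452 counts (4.78), and Zfy1 from 13 to 74 (2.64). Of the 9 measured genes in this list 3 were higher and 1 lower, the latter being Sry.

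Pregranulosa and pro-ovarian genes were less uniform, with 6 of 14 higher, 2 lower and a median of 0.75. Foxl2, the transcription factor of granulosa cells, had 191 counts at E11.5 and 493 at E12.5 (1.50, 1.25 to 1.75), and its level was 27.6 and 43.8 CPM on the following days. Fst, which binds activin, rose by 2.03, Irx3 by 2.32 and Bmp2 by 1.38, and the Wnt co-receptor gene Lgr5 from 268 to 978 counts. Wnt4 and Rspo1, the ligands at the head of the ovarian pathway, were at -0.37 and -0.41 and had no call, unlike Foxl2 and Fst. The E11.5 library also held the mesonephros, and its part in the values of Wnt4 and Rspo1 was not tested. Sprr2d fell from 55 to 19 counts (-1.40). In bulk tissue, fewer cells of a type and less RNA per cell cannot be told apart, and this holds for every list described here.

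Most transcription factors of the early gonad were not past 2-fold, with 4 of 16 higher, none lower and a median of 0.30. Gata4 had 4026 counts at E11.5 and 10077 at E12.5 (1.45, 1.40 to 1.51). Nr5a1, the master regulator of steroid-producing cells, had 2136 and 4962 (1.35, 1.27 to 1.42), and Lhx9 3543 and 7223 (1.16). By contrast Wt1 and Emx2 were at -0.16 and -0.00, and Nr2f2, abundant in interstitial and mesonephric mesenchyme, was at -0.87.

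Leydig cell and steroid synthesis genes rose in 12 of 14 measured cases and none fell (median 2.49). Cyp17a1, needed for androgen synthesis, had 5, 1437, 10503 and 8720 counts from E11.5 to E14.5. Its log2 ratio for the pair was 8.30 (7.07 to 9.92), the largest among genes with 100 or more counts. Hsd3b1, the steroid dehydrogenase of Leydig cells, had 30, 1616, 5171 and 3636 counts, with a ratio of 5.88 (5.36 to 6.45). Both were therefore close to absent at E11.5 and still below their later levels at E12.5. Ren1, the renin gene, rose from 20 to 1112 counts (5.93). Prlr and Lhcgr, receptors for prolactin and luteinising hormone, rose by 4.21 and 3.72. Insl3, the Leydig hormone for testis descent, had 0 counts at E11.5 and 47 at E12.5, at least 17.2-fold higher against a floor of 3 counts, which stands in for every count of 0. Star and Cyp11a1, which bring cholesterol into the mitochondrion and cleave its side chain, were present earlier, with 171 and 233 counts at E11.5, and rose by 2.68 and 2.30. Their redox partners Fdxr and Fdx1 rose by 2.14 and 1.37 and the lipoprotein receptor gene Scarb1 by 1.49. Mc2r, the corticotropin receptor gene, was at -0.75. The adrenal-type enzyme genes Cyp21a1 and Cyp11b1 had fewer than 10 counts in both libraries and were not measured in the comparison.

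**Figure D2:**
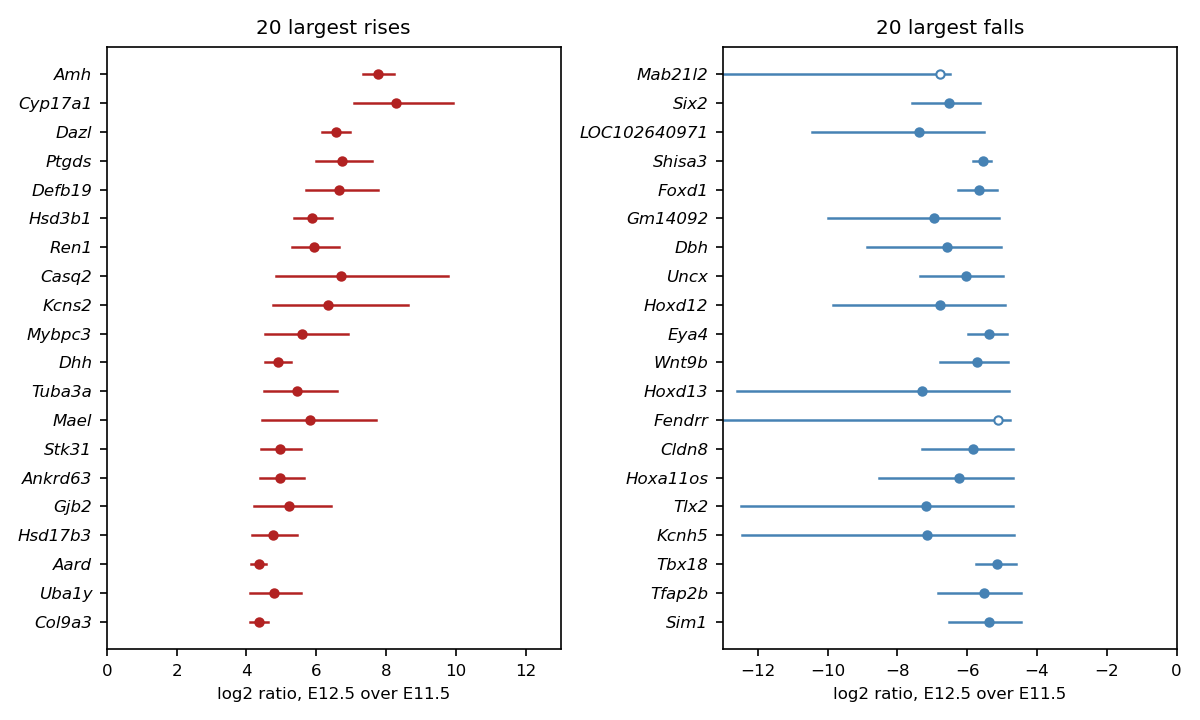
The 20 largest rises (left) and falls (right) among genes with 100 or more counts in the higher library, as log2 ratios with 95% counting intervals, ordered by the interval bound nearer to 0. Amh, Cyp17a1 and Dazl head the rises at 7.76, 8.30 and 6.56, Mab21l2 and Six2 head the falls at -6.79 and -6.52, and open symbols mark genes with 0 counts at E12.5, drawn at the floor.

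Germ cell genes rose in 20 of 25 measured cases, with 1 lower and a median of 2.48. Dazl, an RNA-binding protein that licenses germ cells for sexual differentiation, had 53 counts at E11.5 and 4555 at E12.5, a ratio of 6.56 (6.17 to 6.98). Ddx4, the germ cell RNA helicase, had 97 and 1726 counts (4.28, 3.99 to 4.59). Both stayed high later, at 208 and 162 CPM for Dazl and at 74.7 and 62.4 CPM for Ddx4 on the following days. The genes of pluripotency, which are already active in migrating germ cells, had smaller ratios. Pou5f1 rose from 138 to 1058 counts (3.07, 2.81 to 3.34), Nanog by 2.65 and Sox2 by 2.20. Dppa3, Utf1, Dppa4 and Dppa5a rose by 3.46, 3.24, 3.19 and 3.09, and the specification factors Prdm14, Tfap2c and Prdm1 by 2.82, 2.35 and 1.97. Kit, which is also expressed outside germ cells, was at 0.64, Ifitm3 at 0.78 and Nanos3 at -0.49. Taf7l fell from 105 to 24 counts (interval -2.70 to -1.35) and had 135 and 359 counts in the later libraries. Other genes of this kind among the 20 largest rises were Stk31, with 28 and 795 counts (4.96), and Mael.

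Genes of the piRNA pathway, which silences transposons in germ cells, rose in 12 of 17 measured cases and none fell (median 2.62). Mael, a protein of piRNA granules, had 4, 207, 509 and 570 counts from E11.5 to E14.5, with a ratio of 5.82 (4.45 to 7.71) for the pair. Mov10l1, the helicase that starts piRNA processing, went from 13 to 332 (4.81, 4.01 to 5.73), and Asz1 from 14 to 223 (4.12). The Tudor and Piwi proteins differed among themselves. Tdrd12 rose by 3.67, Tdrd5 by 2.34 and Tdrd1 by 1.52, whereas Tdrd9 had 31 counts in both libraries and Tdrd6 had 11 and 9. Piwil2 rose from 99 to 778 counts (3.10). Piwil4 and Piwil1 rested on 3 counts each at E11.5 and 21 and 12 at E12.5, with ratios of 2.94 (1.19 to 5.33) and 2.13 (0.24 to 4.60). Tex19.1 and Fkbp6 rose by 3.81 and 3.32.

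As 12 of these 17 genes rose, promoters were examined for the 14 measured piRNA genes that had a RefSeq entry. Each promoter was the stretch from 250 bases before to 50 after the start, on build GRCm38.p6. The letters CACGTG, an E box that reads alike on both strands, were found in 5 of the 10 with a rise (Fkbp6, Mael, Mov10l1, Piwil1 and Tdrd1) and also in Tdrd9, which did not rise. The same letters were in 9.67% of the 12914 measured genes with a promoter entry and in 7.24% of all 27025 promoters. They were also in 5 of 10 rising meiosis genes and in Stag3, which did not rise, in 1 of 12 rising germ cell genes and in Taf7l, which fell, and in 0 of 9 rising Leydig genes. The letters TCCCGC on either strand were in 3 of 10 rising piRNA genes and 6 of 10 rising meiosis genes, a lower share than over the 24 measured meiosis genes with an entry, of which 17 held them, against 33.8% of all measured genes, and AAGGTCA was in 0 of 10 in both lists, against 3.37%. A match is a description of the letters only. The promoters of Mael (chr1:166238695-166238994, minus strand) and Ddx4 (chr13:112652261-112652560, minus strand) are shown because they belong to germ cell genes with large rises and hold the E box, in capitals.
Mael: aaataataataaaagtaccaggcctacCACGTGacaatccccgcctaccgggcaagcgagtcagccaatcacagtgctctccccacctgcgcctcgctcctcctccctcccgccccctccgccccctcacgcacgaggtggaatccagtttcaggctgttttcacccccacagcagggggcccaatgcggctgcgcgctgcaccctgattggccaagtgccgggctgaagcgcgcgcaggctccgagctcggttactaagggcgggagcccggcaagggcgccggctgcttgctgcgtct
Ddx4: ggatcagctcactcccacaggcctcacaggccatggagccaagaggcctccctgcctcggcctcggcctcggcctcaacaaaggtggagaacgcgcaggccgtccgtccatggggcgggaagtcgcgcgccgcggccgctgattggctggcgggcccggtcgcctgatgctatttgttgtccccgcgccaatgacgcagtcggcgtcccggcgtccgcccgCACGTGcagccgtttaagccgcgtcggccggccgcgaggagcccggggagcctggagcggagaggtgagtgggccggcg

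Of 29 measured meiosis genes 13 were higher and none lower (median 0.96). The filter asks for 10 counts in 1 library, so higher genes with fewer at E11.5 entered through E12.5 alone. Among the 13 these were Sycp3, Tex11, Spo11 and Tex12, with 6, 6, 8 and 0 counts at E11.5. Sycp3 and Sycp1, of the synaptonemal complex, went from 6 to 66 and from 14 to 121 counts (3.59 and 3.24), and the axis protein gene Hormad1 from 12 to 226 (4.37, 3.53 to 5.34). Smc1b, the meiotic cohesin subunit, went from 57 to 645 counts (3.63, 3.24 to 4.05). The levels of Sycp3 and Smc1b at E12.5, 2.11 and 20.6 CPM, were below those at E14.5, 17.6 and 67.1 CPM. Tex12 had 0 and 23 counts, at least 8.39-fold higher against the floor of 3 counts. Syce1 rose by 3.16, while Syce2 was at 0.96 and not past 2-fold. Stra8, the gene that starts meiosis in response to retinoic acid, had 0 counts at E11.5 and 3 at E12.5, and so was not measured in the pair, against 430 at E13.5. Among recombination genes Tex11 rose by 4.40, and Spo11, which makes the double-strand breaks, rose from 8 to 37 counts (2.34). Mei4 and 2410076I21Rik rose by 2.19 and 2.18 and Tex15 by 1.66, while Dmc1, Msh4 and Msh5 were at 0.25, 0.47 and -0.24. The cohesin subunit gene Rec8 had 463 and 456 counts (0.11). Stag3, another, had 2863 and 1393 (-0.91), then 2581 and 10590.

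X-linked germline and Rhox genes rose in 11 of 15 measured cases and fell in 2 (median 2.08, or 1.08 over the members with 10 or more counts in both libraries). The homeobox genes Rhox5, Rhox9 and Rhox6 rose from 105 to 633, from 80 to 376 and from 75 to 290 counts, and their levels dropped again at E14.5, to 7.91, 3.13 and 1.65 CPM. Usp26 had 17 counts at E11.5 and 354 at E12.5 (4.51). The genes that fell were Taf7l and Tex16.

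Signalling genes of the gonad were found on both sides. In the Hedgehog pathway the receptor Ptch1, itself a target of the signal, rose from 4621 to 9495 counts (1.17, 1.12 to 1.22) and the antagonist Hhip from 397 to 2140 (2.56). The transducers Smo and Gli1 were at -0.20 and 0.69, and Shh, a ligand of gut and urogenital epithelium, fell from 109 to 19 counts (-2.39). Of 15 genes in all, 4 were higher and 2 lower. Ligands and antagonists of the TGF-beta family were higher in 12 of 30 cases and lower in 6. Besides Amh, the embryonic ligand Nodal rose from 17 to 136 counts (3.13), its inhibitors Lefty2 and Lefty1 from 43 to 824 and from 14 to 228 (4.39 and 4.16), and its co-receptor Tdgf1 by 1.98. Nodal, Lefty1, Lefty2 and Tdgf1 each had a lower level at E14.5 than at E12.5. Inha and Inhba, subunits of inhibin and activin, rose by 1.92 and 2.73. The bone morphogenetic protein gene Bmp4 fell from 892 to 168 counts (-2.28, -2.52 to -2.04), and Bmp3 and Bmp5 were at -1.72 and -1.27, the latter under 2-fold with the deposited TPM (-0.97).

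Wnt ligands and their modulators were higher in 4 of 25 cases and lower in 9. Wnt9b, the ligand of the nephric duct, fell from 575 to 10 counts (-5.71, -6.78 to -4.83), and the secreted modulators Sfrp2, Rspo3, Dkk2 and Frzb had ratios of -3.33, -2.54, -2.13 and -2.04. Wnt6 and Wnt5a rose by 1.72 and 1.19. Sfrp4 went from 11 to 180 counts (4.16). In retinoic acid metabolism 8 of 14 genes were lower and 2 higher. Aldh1a2, the main synthesising enzyme of the mesonephros, went from 7750 to 2182 counts (-1.70, -1.77 to -1.63), and Rdh10, which makes its substrate, from 1759 to 517 (-1.64). The related enzyme gene Aldh1a1 moved the other way, from 424 to 5787 counts (3.90, 3.76 to 4.05), and reached 366 CPM at E14.5. The receptor gene Rarb, a target of retinoic acid, fell from 1159 to 120 counts (-3.14). The binding protein genes Crabp1 and Crabp2 stood at -3.33 and -2.97.

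Genes of the matrix rose more often than they fell, with 17 of 43 collagen genes higher and 5 lower. Col4a1 and Col4a2, of the basement membrane, rose from 10073 to 24301 and from 6099 to 14595 counts (1.40 and 1.39). Col4a4 rose by 4.21, Col9a2 by 3.20 and Col6a1 by 2.22. Col2a1, of cartilage, fell from 1502 to 624 counts (-1.14, or -0.84 with the deposited TPM and -0.98 with total counts), and had 22 at E14.5. Of 37 genes matched by their laminin or integrin names, which include a few binding partners, 9 were higher and 4 lower, with Lama3 at 3.04 and Lama5 at -1.32.

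**Figure D3:**
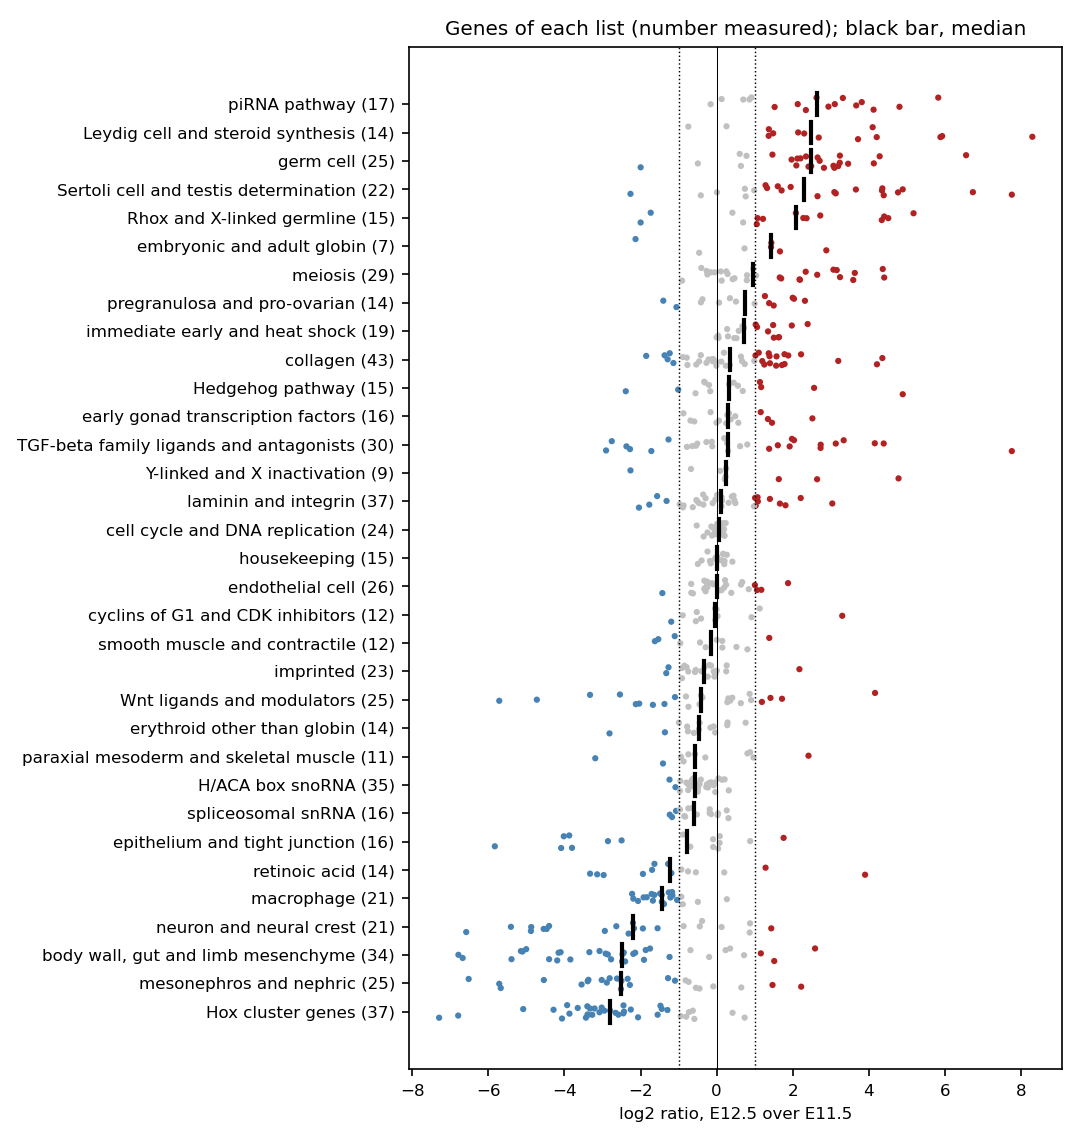
Log2 ratio of every measured gene of the 28 named lists and of the smaller name-pattern lists, 1 line a list, with the number measured in brackets; red genes were called higher at E12.5, blue lower, grey neither, and the black bar is the median. Medians run from 2.62 for the piRNA pathway to -2.80 for the Hox clusters, and cell cycle and housekeeping genes cluster at 0.06 and 0.01.

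The mesonephric and nephric list fell in 17 of 25 cases and rose in 2, with a median of -2.50. Six2, the factor of nephron progenitors, had 1004, 10, 17 and 6 counts from E11.5 to E14.5, with a ratio of -6.52 (-7.58 to -5.63). Foxd1, of the renal stroma, had 1623, 29, 24 and 13 counts (-5.68, -6.26 to -5.15). Pax2, of the nephric duct and tubules, had 1531, 60, 73 and 36 counts (-4.54, -4.94 to -4.17). These genes were thus high in the library with the mesonephros and low, but not absent, in the 3 without it. Gata3 and Sall1 were at -3.55 and -3.39. The receptor Ret and its co-receptor Gfra1, which guide the ureteric bud, were at -2.52 and -2.62, while their ligand Gdnf rose from 388 to 980 counts (1.47, 1.30 to 1.64). Cited1 also rose, from 50 to 213 counts (2.22). Pax8 and Bmp7 were at -0.82 and -0.55, and Lhx1 at 0.65. The summed level of the list was 632 CPM at E11.5, 206 CPM at E12.5, 197 CPM at E13.5 and 372 CPM at E14.5. Wnt7b was at 70.1, 32.7, 32.1 and 201 CPM in the same order. Its ratio for the pair was -1.10, or -0.81 with the deposited TPM and -0.94 with total counts. How much of any fall came from the dissection and how much from age was not tested.

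Of genes of the mesenchyme of the body wall, gut and limb, 26 of 34 measured were lower and 3 higher, with a median of -2.48. Mab21l2 had 363 counts at E11.5 and 0 at E12.5, at least 111-fold lower against the floor of 3 counts. Tbx18, of the mesenchyme around the urogenital tract, had 1046 and 27 counts (-5.15, -5.75 to -4.60). Tbx3 and Foxc1 were more abundant, with 4237 and 512 and with 3683 and 600 counts (-2.92 and -2.49). The gut mesenchyme genes Nkx2-3, Foxf2 and Foxf1 were at -6.68, -5.01 and -2.47. Tbx2 rose instead, from 2485 to 5076 counts (1.16), as did Tbx4 (2.59). Genes of skeletal muscle and paraxial mesoderm were sparse. Of 19 listed 11 were measured, with 2 lower and 1 higher (18.2% and 9.09%, against 8.52% and 8.16% of all genes). Shisa3, which belongs to no list, had the most counts of the 20 largest falls, 6563 at E11.5 and 127 at E12.5 (-5.56, -5.83 to -5.31). Uncx, Eya4, Sim1, Tlx2, Tfap2b and Kcnh5 were the other protein-coding genes outside the lists in that rank, with ratios from -7.18 to -5.39.

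Of the 39 genes of the Hox clusters 37 were measured, and 30 of these were lower and none higher (median -2.80). All 11 measured genes of the A cluster were lower, with Hoxa11 the lowest at -5.09. In the B cluster 8 of 9 were lower, and Hoxb9 was the gene without a call at -0.59. In the C cluster 7 of 8 were lower with a median of -1.51. In the D cluster 4 of 9 were lower. Hoxd13 and Hoxd12 had 172 and 243 counts at E11.5 and 1 and 2 at E12.5 (-7.30 and -6.79), and Hoxd11 had 1254 and 141 (-3.02). Hoxd1, at the opposite end, had 55 and 5 (-3.33), while Hoxd3 and Hoxd4 stood at -0.73 and -0.80. Hoxd10 stood at -0.63, Hoxd9 at 0.74 (0.63 to 0.84) and Hoxd8 at 0.42 (0.32 to 0.52). The Hox genes that remained most abundant at E12.5 were Hoxc6 at 69.5 CPM, Hoxd9 at 63.2 CPM and Hoxd8 at 57.5 CPM, values on a scale that is not corrected for gene length. Over all clusters the 7 genes of paralogue groups 11 to 13 were lower without exception (median -3.87), against 4 of 7 in groups 9 and 10 (median -2.26), 9 of 11 in groups 5 to 8 (median -2.58) and 10 of 12 in groups 1 to 4 (median -2.55).

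**Figure D4:**
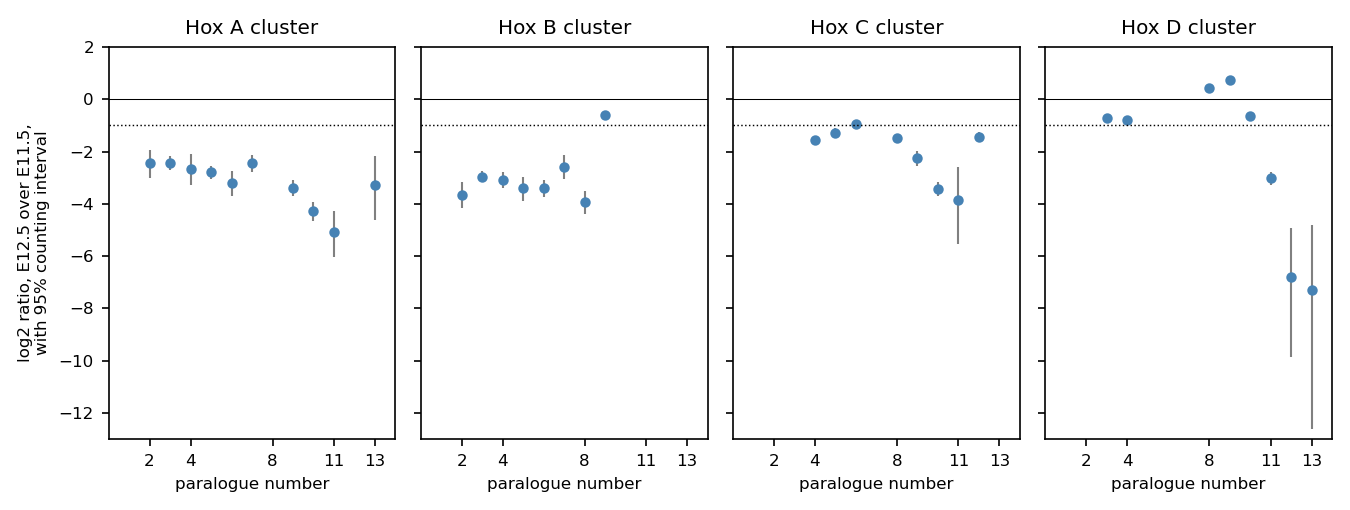
Log2 ratio of the measured Hox genes of paralogue groups 2 to 13, with its 95% counting interval, against its paralogue number in the 4 clusters; the dotted line marks 2-fold lower. The A cluster genes shown lie below that line, while Hoxd8 and Hoxd9 lie above 0 at 0.42 and 0.74 and Hoxd13 reaches -7.30.

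Neuronal and neural crest genes fell in 14 of 21 measured cases (median -2.20). Dbh and Th, enzymes of catecholamine synthesis in sympathetic cells, had 315 and 93 counts at E11.5 and 3 and 2 at E12.5 (-6.58 and -5.41). The neurofilament gene Nefm had 1066 and 44 counts (-4.47). These values were low in each of the 3 libraries without mesonephros. Ngfr, also expressed by mesenchyme, rose from 1025 to 2531 counts (1.43), while the glial gene Erbb3 was at 0.88. Among epithelial genes the claudins fell sharply, Cldn8 from 374 to 6 counts (-5.83), Cldn6 from 540 to 29 (-4.09) and Cldn4 from 550 to 31 (-4.02). Cldn11, of Sertoli cell junctions, rose from 173 to 535 (1.76). Cdh1, Epcam and Krt8, which gonadal cells also express, were at -0.09, 0.08 and 0.08. In all, 7 of 16 epithelial genes were lower and 1 higher.

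Macrophage genes were lower in 17 of 21 measured cases and higher in none, with a median of -1.44. Csf1r, the growth factor receptor of macrophages, had 624 counts at E11.5 and 238 at E12.5 (-1.26, -1.48 to -1.04), and Lyz2 had 215 and 43 (-2.19). With the deposited TPM, Csf1r (-0.96), Emr1, Laptm5, Mrc1, Ms4a7 and Spi1 were under 2-fold. The complement genes C1qa, C1qb and C1qc were at -1.49, -1.64 and -1.71. The summed level of the list went from 125 to 52.0 CPM and was 56.3 and 82.9 CPM on the following days. Among endothelial genes 21 of 26 were not past 2-fold. Pecam1 and Cdh5, junction proteins of every endothelial cell, were at 0.38 and 0.22. The members past 2-fold were the connexin gene Gja5 (1.88, from 136 to 456 counts), Gja4 (1.17), Dll4 (from 197 to 361 counts), the ligand gene Apln (1.06) and, downward, Plvap (-1.43, from 2079 to 706 counts). The arterial genes Sox17, Nos3 and Efnb2 were at 0.64, -0.09 and -0.32. Smooth muscle genes gave 1 rise and 3 falls of 12, with Myh11 at 1.38 and Des at -1.62. These were 8.33% and 25% of the list, against 8.16% and 8.52% of all genes. Of the falls, Tpm2 (-1.10) was under 2-fold with total counts (-0.94) and with the deposited TPM (-0.81).

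Of 7 globin genes 4 were higher and 1 lower. The embryonic gene Hbb-bh1 fell from 4646 to 968 counts (-2.13), while the adult-type gene Hbb-bs rose from 1399 to 9419 (2.88). Hba-a1 and Hba-a2, and Hbb-bs and Hbb-bt, are near-identical pairs whose reads the counting could have split, so their separate values are uncertain. Hba-x and Hbb-y were at -0.46 and 0.73. Other erythroid genes had a median of -0.46, with Hemgn and Klf1 lower at -2.82 and -1.36 (Klf1 at -0.99 with the deposited TPM), and no gene higher among the 14 measured.

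**Figure D5:**
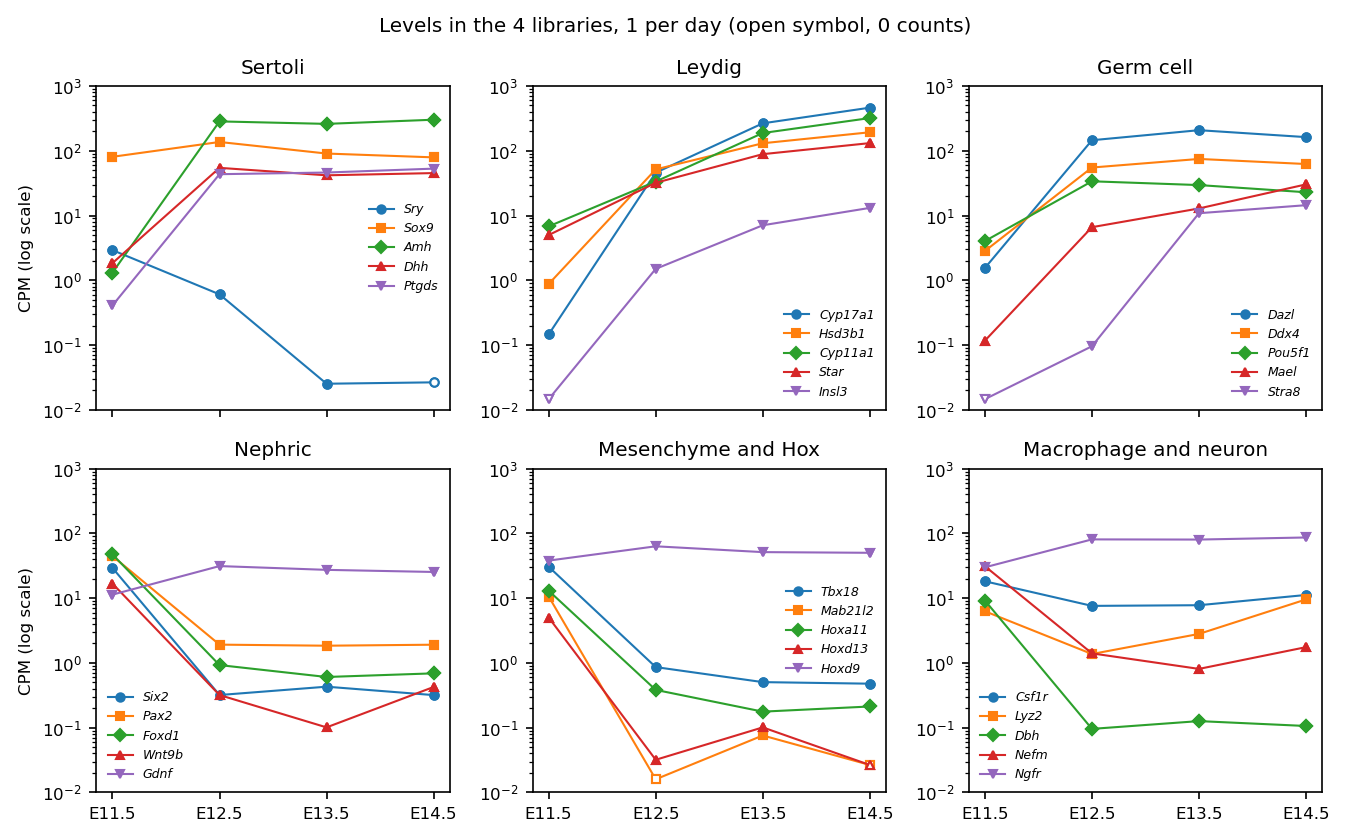
Level of selected genes in the 4 libraries, 1 library a day, in CPM on a log scale; open symbols are counts of 0, drawn below 1 count for display. Amh and Dhh reach a plateau at E12.5, Cyp17a1 keeps climbing to 463 CPM at E14.5, and Six2, Pax2 and Foxd1 drop once between E11.5 and E12.5.

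Of genes of the cell cycle and DNA replication none of the 24 was past 2-fold, and all lay between -0.53 and 0.24. Mki67, a marker of proliferating cells, had 18688 and 16048 counts (-0.09). Among 12 G1 cyclins and inhibitors, cyclin D1 (Ccnd1) fell from 3616 to 1443 counts (-1.19, or -0.91 with the deposited TPM). Cdkn2a had 3 and 27 (3.30, 1.60 to 5.67), and no other member was past 2-fold. In either direction this was 8.33% of the list, near the 8.16% higher and 8.52% lower over all genes. Ribosomal protein genes had a median of 0.06, and the only members of the 84 measured that were past 2-fold were the germline paralogues Rpl10l and Rpl39l (4.06 and 3.22). Of 69 histone genes 3 were past 2-fold, among them the testis-type linker gene Hist1h1t, from 39 to 126 counts (1.82). Imprinted genes gave 1 rise and 2 falls of 23 (4.35% and 8.70%, against 8.16% and 8.52% of all genes). Igf2 and H19, among the most abundant genes of the set, were at -0.79 and -0.57, and Phlda2 rose by 2.18. Immediate early and heat shock genes were higher in 9 of 19 cases and lower in none, with Fosb rising from 1584 to 7590 counts (2.39), Nr4a1 by 1.97 and Fos by 1.62. The heat shock genes Hspa1a and Hsph1 in the same list were at 0.05 and -0.00.

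MicroRNAs gave few counts. Of 1851 mature forms listed 64 were measured, 6 of them higher and 13 lower (median -0.40), and 57 of the 64 had a mature sequence in RefSeq. The following sequences, 5′ to 3′ with the seed (bases 2 to 8) in capitals, are those of the miRNAs with the clearest differences in either direction and of miR-10b-5p, which shares the seed of miR-10a-5p.
miR-202-5p: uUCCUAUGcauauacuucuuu
miR-672-5p: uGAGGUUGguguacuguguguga
let-7b-5p: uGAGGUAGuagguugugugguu
let-7c-5p: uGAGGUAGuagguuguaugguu
miR-196a-5p: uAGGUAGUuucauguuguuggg
miR-10a-5p: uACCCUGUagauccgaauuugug
miR-10b-5p: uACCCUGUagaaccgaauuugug
miR-93-5p: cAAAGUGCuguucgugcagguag
miR-6236: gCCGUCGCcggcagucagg
miR-6240: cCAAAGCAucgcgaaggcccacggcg

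The rise of mmu-miR-202-5p (chr7:139957732-139957752, minus strand, GRCm38.p6) was from 0 counts at E11.5 to 24 at E12.5, at least 8.76-fold against the floor of 3 counts. On the following days 22 and 47 counts were found. Of the X-linked mmu-miR-672-5p there were 3 and 31 counts (3.50, 1.82 to 5.85). The let-7 forms share the seed GAGGUAG, which also belongs to let-7a-5p and let-7e-5p. Within this family mmu-let-7b-5p had 0 and 12 counts, at least 4.38-fold higher against the floor of 3 counts. Counts of mmu-let-7c-5p were 33 and 68 (1.17, 0.55 to 1.82), and the 4 members together had 117 and 151 counts. Near-identical let-7 sequences may share reads, so the split between members is uncertain.

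Several of the falls were of miRNAs encoded within the Hox clusters. Counts of mmu-miR-196a-5p went from 86 to 11 (-2.84, -3.89 to -1.93). With the common seed ACCCUGU, mmu-miR-10a-5p went from 27 to 4 and mmu-miR-10b-5p from 34 to 11 (-2.62 and -1.50). Of mmu-miR-615-3p there were 24 and 6 counts (-1.87). Most Hox genes were lower as well, but miR-10b-5p lies within Hoxd4, which was not past 2-fold (-0.80). Counts of mmu-miR-93-5p, from a cluster active in proliferating cells, were 18 and 1 (-4.04, -9.42 to -1.38). Together with miR-17-5p and miR-20a-5p, which share its seed AAAGUGC, there were 53 and 20 counts, with ratios from -4.04 to -0.63. The next rise in rank after let-7c-5p, mmu-miR-5099, was not past 2-fold, with 1275 and 1410 counts (0.28).

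The most abundant of these, mmu-miR-6236, had 15354, 2133, 2025 and 88495 counts from E11.5 to E14.5, and mmu-miR-6240 had 2137, 147, 125 and 7894. The 18S ribosomal RNA gene Rn18s-rs5 had 2833632, 334505, 325792 and 12816977 counts in the same order. For each 1000 counts of Rn18s-rs5 there were thus 5.42, 6.38, 6.22 and 6.90 counts of miR-6236, while the counts of either varied far more. Lars2, a gene named here after its values were seen, also varied with it, at 162002, 15652, 10378 and 1125000 counts. Nuclear ribosomal RNA was removed before sequencing and its share in the later libraries was 1.03% and 40.7%. What remained of it after depletion moves with the values of miR-6236, miR-6240 and Lars2, and its part in them was not tested.

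Other small RNAs tended to be lower at E12.5. Of 68 C/D box snoRNAs, which guide methylation of ribosomal RNA, 18 were lower and none higher (median -0.83). Of 35 H/ACA box snoRNAs, which guide pseudouridylation, 2 were lower (median -0.58). Both were under 2-fold with the deposited TPM (-0.96 for Snora61 and -0.80 for Snora43). The C/D box list was not recomputed as a whole with the TPM, so the 18 and the 2 did not have the same check. The C/D box member Snord14c, called at -1.25, was under 2-fold with the TPM (-0.97). Snord12 had 995 counts at E11.5 and 311 at E12.5 (-1.55, -1.74 to -1.36), then 385 and 1319. Snord47 had 1872 and 637 (-1.42). Of 275 nuclear tRNA genes 57 were lower and 1 higher (median -0.58), with Trnaf-gaa, for phenylalanine, going from 208 to 30 counts (-2.66). Repeated tRNA genes share sequence, so counts of single copies are uncertain. The summed levels of C/D box snoRNAs were 1727, 998, 836 and 2699 CPM over the 4 libraries, and those of nuclear tRNAs 3148, 2299, 1473 and 3779 CPM. On this scale both were higher in the libraries rich in ribosomal RNA. As shares of all counts, all snoRNAs were at 0.953%, 0.875%, 0.756% and 0.740% and all tRNAs at 0.379%, 0.314%, 0.211% and 0.249%. The rise at E14.5 above E12.5 thus depended on the scaling. The part of ribosomal RNA in the falls was not tested. Of the 16 measured RNAs with names of the Rnu kind, which include spliceosomal RNAs and the U3 snoRNA, 3 forms of U1 were lower (-1.17 for Rnu1b1, -1.07 for Rnu1b2 and -1.23 for Rnu1b6). With the deposited TPM all 3 were under 2-fold, at -0.89, -0.79 and -0.95.

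Long noncoding RNAs were lower in 186 and higher in 138 of 1327 cases. Over all 19500 genes 8.52% were lower and 8.16% higher, and below 1 CPM 17.4% and 15.1%. The class was not compared with other genes of like level. Several of the largest falls of this class lay beside genes that fell as well. LOC102640971 (chr17:85688356-85712949, plus strand) starts 102 bases from Six2, on the other strand, and had 368 counts at E11.5 and 2 at E12.5 (-7.39, -10.44 to -5.53). Hoxa11os (chr6:52245243-52249769, plus strand) overlaps Hoxa11 by 568 bases and had 250 and 3 counts (-6.25, -8.54 to -4.69). Fendrr (chr8:121054882-121083032, minus strand) starts 1354 bases from Foxf1 and had 113 and 0 counts, at least 34.4-fold lower against the floor of 3 counts. The libraries kept strand, but the strand setting of the counting was not given in the sources used here, so reads in the overlap of Hoxa11 and Hoxa11os are uncertain. Gm14092 had 270 and 2 counts (-6.95). Among the rises LOC102635594 had 1 and 43 counts (5.56, a ratio that rests on 1 count at E11.5), Gm2694 had 10 and 129 (3.82), and LOC102639153 had 50 and 434 (3.25, 2.82 to 3.70).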

How the data were processed

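Total RNA of pooled C57BL/6J embryonic tissue was sequenced by the authors as 1 stranded library per day, after depletion of ribosomal RNA and with molecular identifiers. Per the paper's methods, reads were trimmed, aligned with STAR, deduplicated with UMI-tools and counted with featureCounts. The labels name build mm10. Versions, annotation and treatment of multiply mapped reads are not given in the sources used here. The deposited files hold counts per gene, used here, and the authors' TPM (used as an alternative) and RPKM (not used in a result) from the same reads. Counts of the pair were scaled by TMM (edgeR 4.0.16) over the 19500 genes with 10 or more counts in at least 1 library. The log2 ratio, E12.5 over E11.5, has an exact Clopper-Pearson 95% interval of the E12.5 share, covering counting error only. A count of 0 was set at a floor of 3 counts. Folds given against a count of 0 are ratios to this floor. The interval also carries the error of the other count, so its bound can lie nearer to 0. Called means a log2 ratio of 1 or more in size with an interval without 0. No dispersion can be estimated from 1 library a side, so no p-value was computed. CPM use TMM over the 4 libraries, and compare a gene between libraries, not genes with each other. RNA types came from GENCODE M21 and RefSeq. The ratios and intervals were tested on simulated libraries with known folds and counting error only. That is the error the intervals assume, so the test cannot speak to the spread between pools. The comparison and the 28 gene lists, with 10 further lists by name pattern, were chosen with earlier results of these data known. The genes named are the 20 largest rises and falls with 100 or more counts in the higher library, ranked by the interval bound nearer to 0, members of the lists that were past 2-fold or define a list, and the 5 largest rises and falls of mature miRNAs, lncRNAs and snoRNAs. A gene on several lists is counted in each, and a few members counted in the lists are not reported here by name. Alternatives were DESeq2 (1.42.0) size factors, total counts, other filters and thresholds, and the TPM.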

Additional observations from a re-analysis of the deposited data

How the results depend on the processing

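The counts of 1591 higher and 1662 lower genes depended most on the threshold. A 4-fold rule left 698 and 671, and asking the whole interval to lie past 2-fold left 933 and 827. The ratio of the deposited TPM plus 0.1, which carries no interval, gave 1084 lower and 2099 higher genes, and 1061 and 1563 of these were in the main sets. Under this ratio the median of all genes was 0.27, against 0.15 with total counts as the only scaling, 0.00 with DESeq2 size factors and -0.0048 with TMM. Total counts gave 1928 higher and 1370 lower genes, and genes with 10 or more counts in both libraries 1122 and 1120. The other scalings and the looser filter moved each count by less than 1.5 times. Among the 716 genes of the lists and ranks that were recomputed, 367 were called. Of these, 0, 8 and 32 were under 2-fold with DESeq2 size factors, total counts and the TPM ratio, in that order. DESeq2 size factors and total counts moved every log2 ratio by the same amount, 0.0048 and 0.158, so no called gene could change sign. Under the TPM ratio, which comes from the same reads, all 367 kept their sign. Medians near 0 turned with the scaling, such as that of endothelial genes, -0.00 with TMM and 0.16 with total counts, and that of histone genes, -0.12 and 0.04. No paired analysis was possible because each day has 1 library, and no library could be left out for the same reason. Depth limits genes under 1 CPM most, where 1 to 3 counts give intervals several log2 units wide.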

Other observations

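Abundant genes outside the lists and ranks, chosen after their values were seen, gave the following. The glutathione transferase genes Gstm2 and Gstm1 had 1074 and 1038 counts at E11.5 and 6424 and 5701 at E12.5 (log2 ratios 2.71 and 2.59), and near-identical members of that family may share reads. Serinc3 had 6662 and 13142 counts (1.11). The small RNA gene Rny1, a Y RNA, had 8883 and 3488 counts (-1.22). Among the 20 largest rises, Defb19, a beta-defensin, had 9, 821, 1500 and 996 counts from E11.5 to E14.5. The muscle-type genes Casq2 and Mybpc3 in that rank had 2 and 193 and 7 and 308 counts (6.72 and 5.59). The remaining genes of the rank, Kcns2, Tuba3a, Ankrd63 and Gjb2, had ratios of 6.33, 5.45, 4.98 and 5.21. All 20 were also above their E11.5 level on both later days, and all 20 of the largest falls were below it. The ranking had used that same E11.5 library, so this outcome was close to fixed by the choice of genes. Against their E12.5 level, 12 of the 20 rises were above and 8 below at E13.5, and 15 and 5 at E14.5. Of the 20 falls, 10 were above their E12.5 level and 9 below it on each later day.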
